A study of Mus musculus with 12 samples.

Results

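The genes described here encode the proteins of the cytosolic ribosome, read from an RNA-Seq count table of mouse embryonic fibroblasts (MEFs). Members were taken by name: symbols made up of Rpl or Rps and a number, plus Rplp0, Rplp1, Rplp2 and Rpsa. After the number only 1 letter (a, x, y or l) and further digits were allowed. Symbols with other endings, such as -ps or those of the S6 kinase genes, were left out. The rule gave 84 of the 24062 symbols in the table, 31 of the small subunit, 46 of the large subunit and 7 paralogs (Rpl3l, Rpl7l1, Rpl10l, Rpl22l1, Rpl39l, Rps4l and Rps27l). Of these, 79 passed the filter on low counts that was applied to all genes. Rpl26, Rpl3l, Rpl10l, Rpl39l and Rps4l did not pass, and none of the 5 had more than 3 reads in any library. Rpl26, the only one of them that is not a paralog, had 1 read in shBruce FM replicate 1 and 0 elsewhere. The study compared a control line, shRenilla, whose hairpin targets a luciferase that mouse cells lack, with shBruce, whose hairpin targets Birc6, the gene of the ubiquitin ligase BRUCE. Cells were grown in full medium (FM) or starved for 2 h without serum and amino acids (Starv), with 3 libraries in each of the 4 conditions. The methods describe 1 shBruce hairpin (#1) for these libraries, so its effect cannot be told apart from other differences between the 2 lines. Replicates are numbered, but nothing states that they came from separate cultures, so the p-values below measure the spread between these libraries, which may be technical.

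Ribosomal proteins are assembled with ribosomal RNA in the nucleolus into a small subunit, which reads the mRNA, and a large subunit, which joins the amino acids. Their mRNAs are abundant and short, and most begin with a 5′ terminal oligopyrimidine (TOP) tract, a C followed by a run of pyrimidines. Through this tract the kinase mTORC1, which is inactive without amino acids, controls how efficiently these mRNAs are translated, acting through LARP1 and the 4E-BP proteins. The count of an mRNA, the only quantity measured here, does not report its translation.

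The TOP tract is the sequence that ribosomal protein mRNAs are known for, so 6 members named in the results are shown with it. RefSeq promoter entries, which run from 250 bases before to 50 bases after an annotated start (GRCm38.p6), were found for 63 of the 84 members. Each line gives 15 bases before the start and 15 from it, 5′ to 3′ on the strand of the gene, and the capitals mark the C at the start and the unbroken run of pyrimidines after it.
Rps6 (chr4:86857353-86857382, minus strand): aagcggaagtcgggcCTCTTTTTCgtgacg
Rps15a (chr7:118116133-118116162, minus strand): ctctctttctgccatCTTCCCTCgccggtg
Rps21 (chr2:180257364-180257393, plus strand): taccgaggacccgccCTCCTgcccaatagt
Rps27 (chr3:90213634-90213663, minus strand): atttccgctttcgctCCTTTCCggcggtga
Rpl28 (chr7:4792950-4792979, plus strand): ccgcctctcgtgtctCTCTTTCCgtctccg
Rplp2 (chr7:141447636-141447665, plus strand): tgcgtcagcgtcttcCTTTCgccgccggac
Such a tract, a C with at least 4 pyrimidines after it, stood exactly at the annotated start of 13 of the 63 members (20.6%), against 3.01% of the 27025 genes with an entry. Within 10 bases of the start it was found for 39 members (61.9%), against 34.4% of all genes. Members with the tract at the annotated start include Rps21, with a mean normalized count of 8400.1 per kilobase of transcript, and Rpl28, with 42.9. The letters CCGGAAG, a core of ETS factor sites, were present on either strand of the 300 bases in 26 members (41.3%, all genes 9.93%), ATGGCGG, a core of YY1 sites, in 11 (17.5%, all genes 4.69%), and TATAAA in 7 (11.1%, all genes 15.7%). Among the genes tested for expression, the same letters were in 20.6%, 9.74% and 8.48% of those with an entry. These are matches of letters in a fixed window.

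Total counts ranged from 7717265 to 18510540 per library. Birc6 was lower in shBruce in Starv, with a log2 fold change of -1.98 (SE 0.25, adjusted p = 0.0186). In FM it had a value of -1.75 (SE 0.25, adjusted p = 0.0627), which passed the level of 0.05 in 9 of the alternative fits. Its normalized counts in FM were 4682, 3273 and 5061 in shRenilla and 1207, 1265 and 1390 in shBruce, without overlap. Adjusted p-values are those of edgeR's quasi-likelihood test after Benjamini-Hochberg adjustment over the 12154 genes in the fit. Fibroblast markers summed to between 8703 and 12178 CPM (counts scaled to the library total) in every library, with Thy1 at or near 0 throughout. Markers of epithelial, endothelial, muscle and neural cells summed to at most 4.47 CPM and immune markers to at most 21.3 CPM.

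The library shBruce Starv replicate 1 stood apart, and its ribosomal protein genes more than most. It was the shallowest, with 7717265 counts. Against the mean of its 2 replicates, 25 of the 79 members (31.6%) differed by more than 2-fold, 16 upwards and 9 downwards, compared with 10.1% of all genes tested. For 43 members its normalized count was above that of all 11 other libraries and for 13 it was below, 70.9% of the members against 48.4% of all genes. The members did not shift together. Rpsa, the laminin receptor homologue of the small subunit, had a normalized count of 7511 there and of 394 to 1180.1 in the other 11 libraries. Rpl13, of the large subunit, stood at 30740.5 against at most 5922 elsewhere. Rpl11, which also binds MDM2, stood at 2186 against at most 551. Rpl7, in contrast, had 1013 against 3455 to 4794 elsewhere, and the X-linked small-subunit gene Rps4x had 787 against 2279 to 3003. Rpl10, which joins the large subunit late, had 24.2 against 68.6 to 155. Rplp0 and Rps3 lay within the range of the other libraries, at 15496 and 20264. The muscle and neural markers Myod1 and Sox10 were at 0.777 CPM in this library, Myog and Snap25 at 0.389 CPM, and all 4 were at or below 0.0700 CPM in the other 11. The remaining markers of these lists did not follow. Des was at 0.777 CPM in this library and at 0.985 CPM in shBruce Starv replicate 2. Rbfox3 was at 0 in this library and at up to 0.190 CPM elsewhere. All these values stand for a few reads. What sets this library apart was not tested. Each comparison below is therefore given with and without it, and so are the named genes whose value moved.

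**Figure D1:**
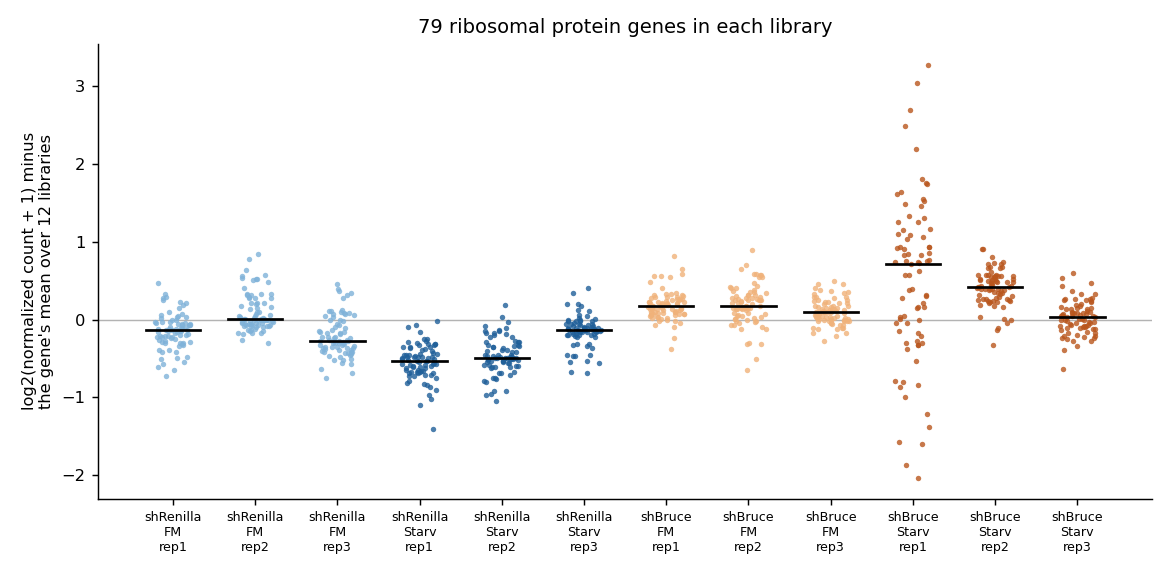
Each point is 1 of 79 ribosomal protein genes in 1 of 12 libraries, as log2(normalized count + 1) minus the gene's mean over the 12 libraries, with a bar at the median. Computed on edgeR's log2 CPM instead of the plotted values, the SD of the genes is 1.06 in shBruce Starv replicate 1. In the other 11 libraries it lies between 0.16 and 0.26.

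**Figure D2:**
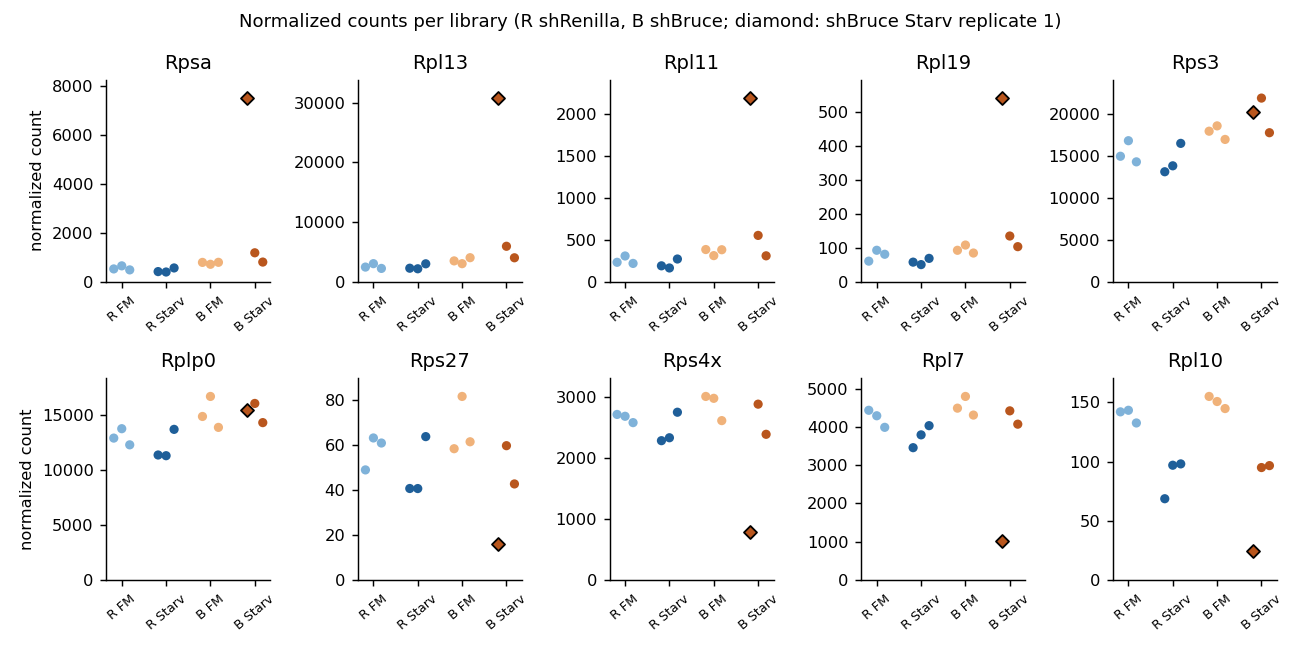
Normalized counts of 10 ribosomal protein genes in the 12 libraries, on linear axes from 0, with the 3 libraries of each condition side by side. In shBruce Starv replicate 1 (diamond) Rpsa, Rpl13, Rpl11 and Rpl19 are above all other libraries, Rps27, Rps4x, Rpl7 and Rpl10 are below all others, and Rps3 and Rplp0 are inside their range.

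A second feature of the libraries moved with the whole group. The members have short transcripts, with a median length of 776 bases against 2697 bases over all genes tested. Among genes that are not members, the mean log2 deviation of the 1141 with transcripts up to 1072 bases, minus that of the 1206 with at least 5717 bases, ran from -0.69 in shRenilla Starv replicate 1 to 0.80 in shBruce Starv replicate 2. The median deviation of the ribosomal protein genes was lowest (-0.53) and second highest (0.42) in the same libraries, and highest (0.72) in shBruce Starv replicate 1. In FM the difference between short and long genes was 0.25 to 0.28 in the 3 shBruce libraries and -0.42 to 0.04 in the 3 shRenilla libraries. For each comparison a fit is therefore also given in which smooth trends of the counts with GC content and transcript length were taken out, library by library. Such a fit also takes out a real change that follows length, and the 2 cannot be told apart here.

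**Figure D3:**
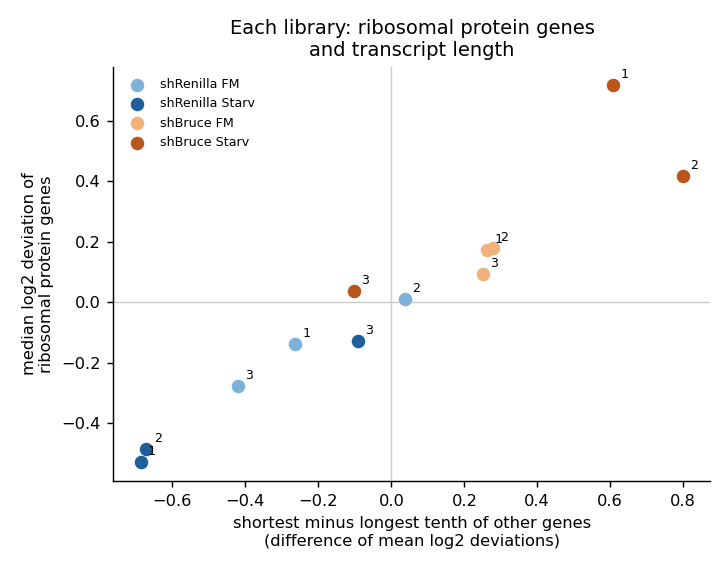
Each point is a library, numbered by replicate. The horizontal axis is the mean log2 deviation of short (up to 1072 bases) minus long (at least 5717 bases) genes that are not members, the vertical axis the median log2 deviation of 79 ribosomal protein genes, both from the mean over 12 libraries. The libraries run from -0.69 and -0.53 (shRenilla Starv replicate 1) to 0.80 and 0.42 (shBruce Starv replicate 2), with shBruce Starv replicate 1 at 0.61 and 0.72.

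The 84 genes together took 1.74% ± 0.18 of all counts in shRenilla FM (SD, n = 3), 1.66% ± 0.26 in shRenilla Starv, 2.13% ± 0.092 in shBruce FM and 2.83% ± 0.77 in shBruce Starv. The 3 shRenilla libraries in FM lay between 1.59% and 1.94%, below those of shBruce in FM (2.06% to 2.24%). The shRenilla Starv libraries were at 1.49%, 1.52% and 1.95%. The shBruce Starv libraries were at 3.65%, 2.70% and 2.13%, all above the shRenilla Starv libraries, with the value of 3.65% from the library that stood apart.

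Levels differed widely between members although the proteins are present in equal copies in the ribosome, apart from the stalk proteins. Per kilobase of transcript, mean normalized counts of the 79 tested members over the 12 libraries ran from 33 (Rps13) to 49485 (Rplp1). The highest were Rplp1 and, in order, Rpl8 (31127), Rpl4 (26424) and Rps15 (23320.0). Above Rps13 the lowest were Rps29 (39.8), Rps23 (41.3), Rpl28 (42.9) and Rpl30 (46). These neighbours in the order do not differ beyond their spread over libraries, since the normalized count of Rps13 ran from 12.8 to 60.6 and that of Rpl28 from 20.7 to 70.1. Divided by the length of all annotated exons of a gene instead of its transcript length, the same counts gave the same highest 4 genes in the same order. The 5 members with most counts held 41.7% of the counts of the group, and 18 members had a mean normalized count under 100. Ribosomal protein genes have many processed pseudogenes, and reads that fit several places are hard to assign. Of the members, 81 of 84 shared at least 1 stretch of 50 bases, the read length, with another gene annotated in GENCODE M21, and a median of 59.9% of their stretches were found in no other gene, from 4.91% (Rpl35) to 100% (the paralogs Rpl3l and Rpl39l among others). For the 32 tested members with under 50% the median level was 515 per kilobase, and for the other 47 it was 2536. Spearman's rho between this share and the level was 0.44 across the 79 genes, which share libraries and are not independent. The members' exons also overlapped those of another gene on either strand in 19 cases, and for Rpl24, Rpl35, Rpl23a, Rpl13a, Rps10 and Rpl30 over more than 50% of their length. The strand setting of the counting is not given in the sources used here, so the levels of low and overlapping members are uncertain. Of the genes named below, Rpl3 had 14.4% of stretches in no other gene, Rps6 15.4%, Rpl13 19.7%, Rpl10 20.4%, Rps16 58.4% and Rpsa 66.7%.

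**Figure D4:**
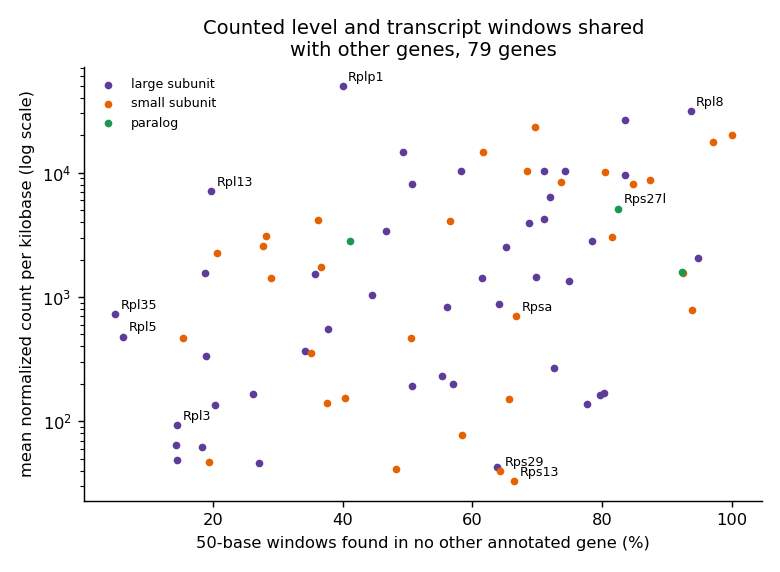
Mean normalized count per kilobase (log axis) against the percentage of 50-base windows of a gene's transcripts that occur in no other annotated gene, for 79 ribosomal protein genes by class. Genes under 100 per kilobase have at most 66.5% of such windows, while Rpl8 has 93.7% and 31127 per kilobase, and Rplp1 has 40% and the highest level.

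After starvation of the control line nearly all ribosomal protein mRNAs had slightly lower values, and few passed the test. The median log2 fold change of Starv against FM in shRenilla was -0.21 over the 79 members and -0.01 over all 12154 genes tested, and 77 of the 79 values were below 0. Of the members, 5 fell and 0 rose (adjusted p under 0.05), 6.33% against 17% of all genes in either direction and 7.27% of all genes downwards. At an unadjusted p under 0.05 there were 13 members, against 31.6% of all genes. The comparison shares its shRenilla libraries with the comparisons between lines, and its values stand beside theirs below. Rpl3, which lies near the peptidyl transferase centre, had normalized counts of 148, 174 and 160 in FM and of 91, 86.5 and 95.2 in Starv. It fell by 0.82 (SE 0.20, adjusted p = 0.0118). Rpl10a, of the L1 stalk, had 291, 354 and 305 in FM and 155, 166 and 229 in Starv, and fell by 0.79 (SE 0.21, adjusted p = 0.0191). Its groups did not overlap, nor did those of Rpl3. Rps12 fell by 0.75 (SE 0.19, adjusted p = 0.0175), from 186 ± 20.6 to 111 ± 10.2 (SD, n = 3). Rpl28 fell by 1.07 (SE 0.30, adjusted p = 0.0253) at a low level, from 47.8 ± 9.7 to 22.6 ± 1.75. The paralog Rpl7l1, whose yeast counterpart acts in subunit assembly, fell by 0.48 (SE 0.13, adjusted p = 0.0284), from 3496 ± 204 to 2511 ± 182. Its partner Rpl7 had a log2 fold change of -0.17 (adjusted p = 0.774, and 0.209 without shBruce Starv replicate 1). For all 5 the exact permutation test gave 0.1, the smallest p that 3 libraries against 3 allow. In all, 17 members were lower without overlap between the groups and 0 were higher, against 26.5% and 25.9% of all genes. Without shBruce Starv replicate 1, 10 fell, against 11.7% of all genes downwards, and the 5 were among them. That library is in neither group compared, and enters through the shared estimate of spread, the filter and the normalization. With the length and GC trends removed 6 fell, against 13.5% of all genes downwards, 4 of them the same genes (not Rpl10a), the median was -0.14 and 12 members had an unadjusted p under 0.05, against 38.1% of all genes. The count was 0 without shRenilla FM replicate 2 (9.73% of all genes called), 2 without shRenilla FM replicate 3 (9.74%), 1 without shRenilla Starv replicate 1 (9.38%), 1 without shRenilla Starv replicate 2 (9.34%) and 8 without shBruce Starv replicate 3 (25.5%).

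In shBruce cells starvation gave both directions, and most of the rises were larger with 1 library than without it. The median log2 fold change was 0.22 over the members and 0.02 over all genes. Of the 79 members 6 rose and 4 fell, 12.7% against 23% of all genes (12.4% upwards and 10.6% downwards), and 26 had an unadjusted p under 0.05, against 36.3% of all genes. Without shBruce Starv replicate 1 the median was 0.10, and 1 member (Rpl15) rose and 3 fell, against 23.9% of all genes, with 11 at an unadjusted p under 0.05 against 36%. Rpsa had 787, 710 and 790 in FM and 7511, 1180.1 and 801 in Starv. Its log2 fold change of 2.04 (SE 0.61, adjusted p = 0.0279) became 0.36 (adjusted p = 0.193) without that library. Rpl13 had 3472, 3008 and 4009.6 in FM and 30740.5, 5922 and 3995 in Starv, so its groups overlapped. Its value of 1.95 (SE 0.55, adjusted p = 0.0225) became 0.49 (adjusted p = 0.0936). Rpl32 rose by 1.00 (adjusted p = 0.0341) and Rps6, the substrate of the S6 kinases, by 0.87 (adjusted p = 0.0271). Without the library these values were 0.35 and 0.45, with adjusted p of 0.126 and 0.0957. Rps15a went from 0.68 to 0.28 (adjusted p = 0.206). Rps16 kept its size, with 0.63 (adjusted p = 0.0431) and 0.60 (adjusted p = 0.0687). With the length and GC trends removed and all libraries, 10 members rose and 4 fell, against 14.2% of all genes upwards and 18.3% downwards, among them Rpsa at 1.90 (adjusted p = 0.0301). With the trends removed and without that library, 8 rose and 7 fell, against 15% of all genes upwards and 20.7% downwards. There Rpl13 had 0.46 (adjusted p = 0.0151), Rpl32 0.32 (adjusted p = 0.0155), Rps16 0.51 (adjusted p = 0.0451) and Rpsa 0.30 (adjusted p = 0.134).

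The falls in shBruce kept more of their size. Rpl10 had 155, 151 and 145 in FM and 24.2, 95 and 96.6 in Starv, lower in each starved library. It fell by 0.99 (SE 0.32, adjusted p = 0.0381) and without replicate 1 by 0.66 (adjusted p = 0.0142). In shRenilla its value was -0.67 (adjusted p = 0.153), from 139 ± 5.85 to 87.9 ± 16.7, also without overlap, and without shBruce Starv replicate 1, -0.66 (adjusted p = 0.00725). Rpl10a had 334, 359 and 260 in FM and 137, 190 and 233 in Starv. It fell by 0.75 (adjusted p = 0.021) and without replicate 1 by 0.60 (adjusted p = 0.0452). Rpl27 fell by 0.73 (adjusted p = 0.022) and without replicate 1 by 0.76 (adjusted p = 0.0296). Rpl3 fell by 0.66 (adjusted p = 0.0307), its groups overlapped, and without replicate 1 its value was -0.58 (adjusted p = 0.0624). Rpl10, Rpl10a and Rpl27 also passed with the length and GC trends removed, with all libraries and without replicate 1. The members that passed in both lines were Rpl3 and Rpl10a with all libraries, and Rpl10 and Rpl10a without shBruce Starv replicate 1. With the length and GC trends removed only Rpl3 did. With the trends removed and without that library, Rpl10, Rpl10a, Rpl3, Rpl7 and Rpl7l1 did. The lines share no libraries but share the estimate of spread, and the share of all genes that passed in both was not computed. With all libraries, 22 members had values below 0 in both lines. Nearly all members were below 0 in shRenilla, so this count depends mainly on the values in shBruce. The share of all genes below 0 in both lines was not computed. The count of members that passed in shBruce was 1 without shBruce FM replicate 1 (15.6% of all genes called), 0 without shBruce FM replicate 2 (15.1%), 6 without shBruce FM replicate 3 (20.9%) and 33 without shBruce Starv replicate 3, 41.8% against 32.7%.

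In full medium no difference between the lines passed the test for any member, although the values were nearly all on 1 side. The median log2 fold change of shBruce against shRenilla in FM was 0.25 over the members and 0.01 over all genes, and 72 of the 79 were above 0. By edgeR 0 of the 79 members and 0% of all genes passed, with 8 members at an unadjusted p under 0.05, 10.1% against 14.4% of all genes. Leaving out shBruce Starv replicate 1 made this 32 members, 40.5% against 23.1%, and still 0 members passed. DESeq2 called 0 members and 71 genes. Yet the 3 shBruce libraries were above the 3 shRenilla libraries without overlap for 43 members and below for 0, against 16.4% and 17% of all genes. The members with the smallest unadjusted p were Rps21, Rps2 and Rplp2. Rps21 had 2156, 2864 and 2199 in shRenilla and 3462, 3781 and 3447 in shBruce, a log2 fold change of 0.57 (SE 0.22, adjusted p = 0.306). Rps2 had 2795, 4045 and 2955 in shRenilla and 4132, 4586 and 4699 in shBruce, a value of 0.45 (SE 0.17, adjusted p = 0.308). For Rplp2 the value was 0.51 (SE 0.20, adjusted p = 0.309), from 2157 ± 365 to 3067 ± 207. With the length and GC trends removed, the median of the members was 0.07 and that of all genes 0.03, and the 3 genes had values of 0.34, 0.20 and 0.22. In that fit 0 members and 0.0165% of all genes passed, and in the fit without shBruce Starv replicate 1, trends kept, 0.00816% of all genes passed. The fit of the FM libraries alone called 4 members higher, 5.06% against 5.11% of all genes. As in all comparisons of bulk RNA, fewer cells with a transcript and less of it per cell cannot be told apart.

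After starvation ribosomal protein genes were higher in shBruce than in shRenilla. Of the 79 members 51 were higher and 0 lower, 64.6% against 12.8% of all genes upwards and 23.9% in either direction, and 60 had an unadjusted p under 0.05 against 41.2%. The median log2 fold change was 0.78 over the members and 0.00 over all genes, with 73 members above 0. Both subunits took part, with 22 of 31 small-subunit genes (median 0.97) and 28 of 45 large-subunit genes (median 0.75) higher, and Rps27l alone among the 3 paralogs tested. The groups did not overlap for 50 members, all higher in shBruce, against 16.4% of all genes. The count changed with the libraries left out. Without shBruce Starv replicate 1, 29 members were higher and 0 lower, 36.7% against 1.84% of all genes upwards and 4.68% in either direction, the median was 0.56 and 78 of 79 were above 0. Of these 29 genes 26 were among the 51. The 29 all had an adjusted p of 0.0483 or 0.0485, close to the level of 0.05. The other 2 shBruce Starv libraries were above all 3 shRenilla Starv libraries for 59 members and below for 0, against 21.1% and 21.9% of all genes. However, leaving out replicate 1 or replicate 2 of shRenilla Starv, or replicate 2 of shBruce Starv, left 0 members called each time, and so did a fit of the starved libraries alone. Over all genes these fits called 0%, 0%, 0.122% and 0%. In the last of them 55 members (69.6%) had an unadjusted p under 0.05, against 30.6% of all genes. In the first 3 it was 64.6%, 67.1% and 65.8% of members, against 28.4%, 27.7% and 34.3% of all genes. Leaving out replicate 3 of shRenilla Starv left 54 members called (68.4%, all genes 23.9%). Leaving out replicate 3 of shBruce Starv left 55 called (69.6%, all genes 46.7%).

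**Figure D5:**
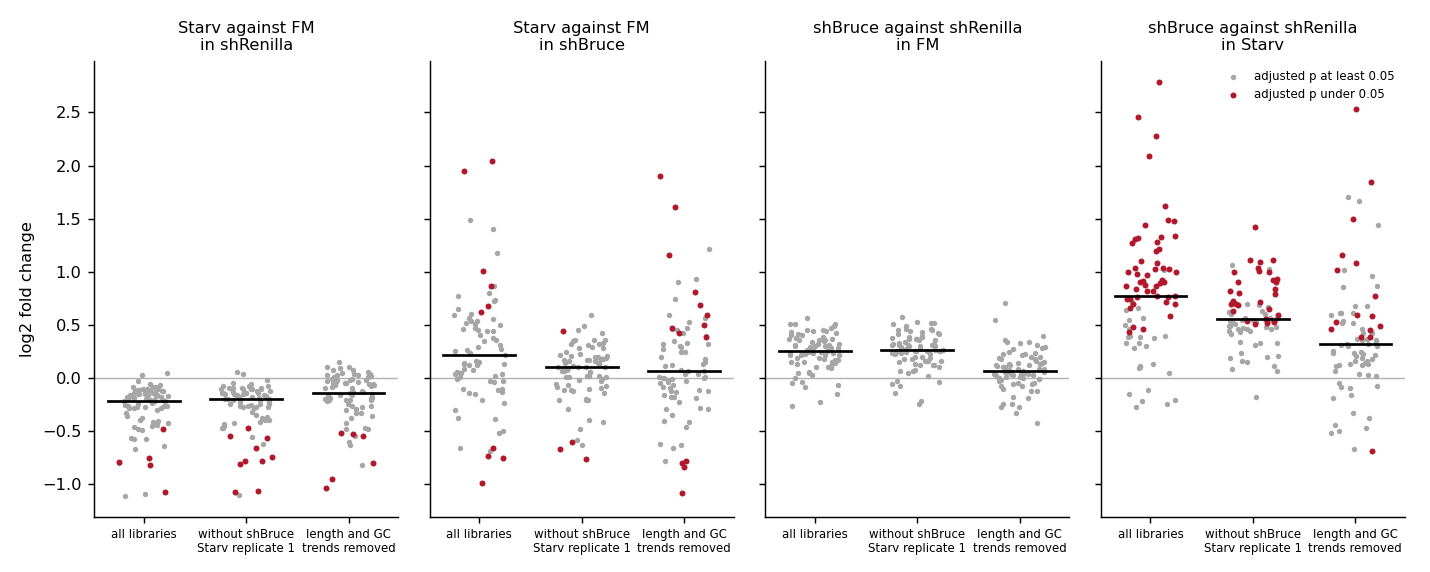
Log2 fold changes of 79 ribosomal protein genes (points) and their median (bar) in 4 comparisons, each from 3 fits, with genes at an adjusted p under 0.05 (edgeR) in red. In shBruce against shRenilla in Starv the median goes from 0.78 with all libraries to 0.56 without shBruce Starv replicate 1 and to 0.33 with length and GC trends removed, and the number of red points from 51 to 29 and 16.

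The largest of these differences were those of the library that stood apart. Rpsa had 411, 394 and 560 in shRenilla Starv and 7511, 1180.1 and 801 in shBruce Starv, a log2 fold change of 2.79 (SE 0.63, adjusted p = 0.0225). Without replicate 1 it was 1.11 (SE 0.19, adjusted p = 0.0483). The remaining 2 shBruce libraries were still above each shRenilla library. Rpl13 had 2246, 2153 and 2984 in shRenilla Starv and 30740.5, 5922 and 3995 in shBruce Starv, a value of 2.46 (SE 0.56, adjusted p = 0.0225) that became 1.00 (SE 0.20, adjusted p = 0.0483). Rpl11 went from 2.28 to 1.04 and Rpl19 from 2.09 to 1.00. Rps16, which is named here after its values were seen, had much the same value without that library. It had 40.7, 50.2 and 58.1 in shRenilla Starv and 137, 152 and 117 in shBruce Starv, with 1.45 (SE 0.21, adjusted p = 0.0225) over all libraries and 1.42 (SE 0.23, adjusted p = 0.0483) without replicate 1. Rps21 had 1679, 1809 and 2753 in shRenilla Starv and 6496, 5356 and 3714 in shBruce Starv. Its values were 1.32 and 1.11. Rpl22, which also binds viral RNA, had 3156, 3267 and 4101 in shRenilla Starv and 4594, 5414 and 4649.7 in shBruce Starv, with 0.48 and 0.51.

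Removing the length and GC trends lowered this difference more than leaving out the library did. The median fell to 0.33, with 15 members higher and 1 lower, 20.3% in all against 5.49% of all genes. Upwards it was 19% against 3.41%, and downwards 2.08% of all genes passed. Of these 16, 14 were among the 51, all higher. The lower gene was Rpl27, at -0.68 (adjusted p = 0.0489). With the trends removed and without shBruce Starv replicate 1, 8 were higher and 0 lower, against 0.996% of all genes upwards, and the median was 0.25. Rpsa, Rpl22, Rpl23, Rpl32, Rps16 and Rps21 were higher in all 4 of these fits, a list made after the values were seen. Rps16 then had 1.20 (adjusted p = 0.0407), Rpsa 0.92 (adjusted p = 0.0407) and Rps21 0.69 (adjusted p = 0.0407).

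The interaction, which asks whether starvation acted differently in the 2 lines, gave no call. Its median was 0.48 over the members and -0.01 over all genes, and 71 of 79 values were above 0. By edgeR 0 members and 0% of all genes passed, and 18 members (22.8%) had an unadjusted p under 0.05 against 3.9% of all genes. DESeq2 called 0 genes. Without shBruce Starv replicate 1 the median was 0.31 and 9 members had an unadjusted p under 0.05, 11.4% against 3.18% of all genes. With the trends removed the median was 0.27.

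The stalk proteins Rplp0, Rplp1 and Rplp2 recruit the elongation factors to the large subunit. Rplp0, often used as a reference gene, varied least, between 11324 and 16723 over the 12 libraries. In Starv it had 11388, 11324 and 13723 in shRenilla and 15496, 16084 and 14337 in shBruce. The groups did not overlap, and the value of 0.33 (SE 0.12) missed the level (adjusted p = 0.0591), as it did without replicate 1, at 0.31 (adjusted p = 0.0977). Rplp1 was higher in shBruce by 1.20 (adjusted p = 0.0257), with 65340.5 in replicate 1 against 28679 and 21550.5 in the others, and without that library its value was 0.57 (adjusted p = 0.0605). Rplp2 was higher by 1.08 (adjusted p = 0.0225) and by 0.90 without it (adjusted p = 0.0483).

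Rpl5, Rpl11 and Rpl23 can bind MDM2 when ribosome assembly is disturbed and so stabilize p53. In shBruce against shRenilla in Starv, Rpl23 was higher by 0.59 (SE 0.13, adjusted p = 0.0225), with 1954, 2071 and 2408 in shRenilla and 3278, 3566 and 2814 in shBruce, and by 0.56 without replicate 1 (adjusted p = 0.0483). Rpl5 had 818, 858 and 853 in shRenilla and 947, 1280.4 and 1076 in shBruce, a value of 0.39 that missed the level (adjusted p = 0.0719) and was 0.47 without replicate 1 (adjusted p = 0.0647). With the trends removed and all libraries it passed, at 0.52 (adjusted p = 0.0422). The assignment of Rpl5 is uncertain, since 6.16% of its stretches of 50 bases are found in no other gene. Rps27a, which is made as a fusion with ubiquitin, had a value of 0.13 (adjusted p = 0.724), with 71, 77 and 97.1 in shRenilla and 52.5, 120 and 89.2 in shBruce. Without replicate 1 its value was 0.34 (adjusted p = 0.285).

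Of the 7 paralogs, Rpl7l1, Rpl22l1 and Rps27l were well detected, with means of 3121, 1518 and 2745 over the 12 libraries. Rps27l, a p53 target in several cell types, was higher in shBruce in Starv by 0.77 (SE 0.18, adjusted p = 0.0231), from 2067 ± 220 to 3519 ± 979. Without replicate 1 the value was 0.56 (adjusted p = 0.0587). Its partner Rps27 had -0.21 (adjusted p = 0.666) at 40.7, 40.7 and 63.8 in shRenilla and 16.1, 59.8 and 42.7 in shBruce, and the sign turned to 0.07 without replicate 1 (adjusted p = 0.875). Rpl22l1 had 0.10 (adjusted p = 0.696), with 1262, 1357 and 1723 in shRenilla and 1221, 2098 and 1340.3 in shBruce, and 0.23 without replicate 1 (adjusted p = 0.364). The tissue-restricted paralogs Rpl3l of muscle and Rpl10l of testis, and Rpl39l, were at or near 0. Rpl10l and Rpl39l had 3 reads each in shBruce Starv replicate 1 and were listed at 0 in the other 11 libraries. Rps4l is annotated as a transcribed processed pseudogene.

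Other genes of protein synthesis give the setting. The nuclear genes of the mitochondrial ribosome, which also have short transcripts, in shBruce against shRenilla in Starv had 45 of 76 higher, 0 lower and a median of 0.61, where 12.8% of all genes were higher. Leaving out shBruce Starv replicate 1 made this 5 of 77 (6.49%), where 1.84% of all genes were higher, with a median of 0.41. Among other TOP mRNAs and the translation machinery, 7 of 19 were higher (36.8%) and 0 lower, with a median of 0.25. They included Eef1d (1.07, adjusted p = 0.0258), Eif3f (0.67, adjusted p = 0.0225) and Eef1b2 (0.66, adjusted p = 0.0225), of the elongation and initiation factors. Without the library 1 of 19 was higher, Eef1b2 at 0.55 (adjusted p = 0.0485), while Eef1d had 0.57 (adjusted p = 0.069) and Eif3f 0.50 (adjusted p = 0.0522).

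Some ribosome assembly genes fell in starvation. Of 40, 12 fell and 0 rose in shRenilla (30%, median -0.36), where 7.27% of all genes fell. In shBruce 11 fell and 0 rose (27.5%, median -0.16), where 10.6% of all genes fell. Without shBruce Starv replicate 1 the falls were 18 and 11, where 11.7% and 11.6% of all genes fell. Rrs1, an assembly factor of the large subunit, fell by 1.07 in shRenilla (adjusted p = 1.55e-04) and by 1.08 in shBruce (adjusted p = 1.32e-04). Polr1b, the second largest subunit of RNA polymerase I, fell by 0.71 (adjusted p = 0.0467) and by 1.08 (adjusted p = 0.00453). In shBruce against shRenilla in Starv 9 of the 40 were higher and 1, Utp20, was lower, with a median of 0.29. There 12.8% of all genes were higher and 11.2% lower. Without the library 0 of the 40 were called, where 4.68% of all genes were. Among 13 regulators, Eif4ebp1, the gene of 4E-BP1, rose by 1.11 in shRenilla (adjusted p = 0.00105) and by 1.06 in shBruce (adjusted p = 0.00119). Tia1, which binds TOP mRNAs, rose in shRenilla by 0.54 (adjusted p = 0.021). Myc, which drives ribosomal protein transcription, fell by 1.12 in shBruce (adjusted p = 0.0128) and had -0.73 in shRenilla (adjusted p = 0.0941). In the fit without shBruce Starv replicate 1 it fell by 0.86 in shBruce (adjusted p = 0.0227) and by 0.71 in shRenilla (adjusted p = 0.0275). Rps6kb2 fell by 0.53 in shBruce (adjusted p = 0.044) and by 0.34 without that library (adjusted p = 0.0473). In shBruce against shRenilla in Starv 3 regulators were higher (Larp1 0.56, Eif4ebp1 0.55, Maf1 0.46) and 3 lower (Eif4ebp2 -0.98, Larp4 -0.55, Mtor -0.43). All had an adjusted p between 0.0259 and 0.0449. Of all genes 12.8% were higher and 11.2% lower. Without replicate 1 none of the 13 passed, where 4.68% of all genes did. Larp1 then had 0.25, Eif4ebp1 0.40, Maf1 0.43, Eif4ebp2 -0.89, Larp4 -0.48 and Mtor -0.40, with adjusted p from 0.0704 to 0.138.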

How the data were processed

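RNA-Seq libraries of poly(A)-enriched RNA from MEFs were sequenced with single-end reads of 50 bases. The authors aligned reads and counted them per gene before deposit. Their processing notes name STAR 2.4.0d, HTSeq 0.5.4p3 and mm10, while the annotation, the overlap mode and the strand setting are not given in the sources used here. The deposited counts were whole numbers for 24062 symbols. Of these, 27 had been turned into dates (0.296% of counts) and 2 were repeated.

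From the counts, edgeR 4.0.16 (R 4.3.3) was run with filterByExpr, TMM normalization and the quasi-likelihood test on the 4 condition means of all 12 libraries, with Benjamini-Hochberg adjustment over 12154 genes and a level of 0.05. Normalized counts were divided by the effective library size relative to the geometric mean. Plotted log2 values had 1 added. Trends were fitted with splines (4 degrees of freedom) for the 99.2% of genes with a length and GC content. DESeq2 1.42.0 and limma 3.58.1 were alternatives. The test was also run on simulated data with no outlying library and no length trend. That run does not bear on those features. Replicates differed beyond sampling noise in every condition (chi-square per degree of freedom 2.18 to 92.3). Members and gene lists were chosen with earlier results of these data known. Named members were Rpsa, Rpl13, the stalk and MDM2-binding genes, Rps27a, the paralogs with their partners, the 5 highest and 5 lowest per kilobase, and up to 4 called members per direction and comparison by fold change (the 3 smallest p where none passed). Some items that the rule would name are not reported here. From other lists up to 3 genes per direction were named. Exact permutation tests were two-sided.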

Additional observations from a re-analysis of the deposited data

Results flagged for a closer look

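Rps16, of the small subunit, moved in opposite directions on starvation in the 2 lines, without overlap between the groups in either. In shRenilla it had 70.2, 90.5 and 60.0 in FM and 40.7, 50.2 and 58.1 in Starv, a log2 fold change of -0.57 (SE 0.21, adjusted p = 0.0851, edgeR). In shBruce it had 76.5, 82.7 and 103 in FM and 137, 152 and 117 in Starv, a value of 0.63 (SE 0.21, adjusted p = 0.0431). The difference between the 2 values was 1.19 (SE 0.30, unadjusted p = 0.00141) and did not pass the interaction test over all genes (edgeR, adjusted p = 0.806). It was 1.16 without shBruce Starv replicate 1 (adjusted p = 0.994), 1.02 with the length and GC trends removed (adjusted p = 0.783) and 1.20 by DESeq2 (adjusted p = 0.473).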

How the results depend on the processing

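The median log2 fold change of the members kept its sign in every comparison under every alternative run. The counts of members called moved more. In Starv against FM in shRenilla (5), 8 were called by DESeq2 (10.1%, all genes 21.1%), 14 in the fit of the compared groups alone (17.7%, all genes 41.9%), 15 (19%, all genes 38%) with length and GC trends removed and without shBruce Starv replicate 1 (chosen after seeing the data), and 0 to 10 when 1 library was left out. In Starv against FM in shBruce (10) the counts were 16 with upper-quartile normalization (20.3%, all genes 24.1%), 6 by limma-voom (7.59%, all genes 22.6%), 0 in the compared groups alone (all genes 8.11%) and 0 to 33 when 1 library was left out. In FM, 4 passed in the compared groups alone. In shBruce against shRenilla in Starv (51) the counts were 0 in the compared groups alone and 16 with trends removed. With trends removed and without shBruce Starv replicate 1 the count was 8. When 1 library was left out it was 0 to 55, with the 55 (69.6%, all genes 46.7%) from leaving out shBruce Starv replicate 3. The median of 0.78 became 0.33 with trends removed, and 0.25 with trends removed and without shBruce Starv replicate 1. The interaction median of 0.48 became 0.19 under the latter. The causes were not tested. Same-numbered libraries did not deviate together (correlations from -0.46 to 0.35), and libraries did not all correlate best with their own number, so replicate numbers were not taken as pairs. With replicate as a block 6, 5, 0 and 44 members were called in the 4 comparisons in the order above, where 14.6%, 20.2%, 0% and 15.9% of all genes were. With the block and trends removed, 0 (all genes 0.0165%) were called in shBruce against shRenilla in Starv (median 0.32), and the interaction median was 0.25. For single named genes no direction of a called value turned: of 741 values under alternatives 591 kept their side of the level, 139 no longer passed and 11 newly passed. Of these 11, 9 were Birc6 in FM, which is not a member. The 591 include results that did not pass in the main fit, such as Rps2 in FM. Depth of at most 18510540 counts limits what can be said of the 18 members with a mean normalized count under 100.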
